A study of Gorilla gorilla with 12 samples.

Results

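Genes for the factors that start and carry forward protein synthesis were followed in cultured gorilla fibroblasts. The set holds every gene whose probe annotation gives 1 symbol starting with EIF1 to EIF6 or EEF, leaving out the sex-linked EIF1A pair. This gave 53 probe sets of 42 genes, out of 12625 probe sets and 8229 symbols on the array. Each gene was read from its brightest probe set, by the mean log2 value over the standard cultures. Another 8 probe sets carry such a symbol together with further symbols and were left out by the rule. RNA came from fibroblast lines of normal donors, 1 array per culture and 12 arrays in all. The 11 standard cultures comprised 6 lines labelled female, aged 19, 19, 35, 26, 30 and 2 years (females 1 to 6), and 5 labelled male, aged 19, 26, 24, 18 and 3 years (males 1 to 5). The remaining array held male line 2, aged 26 years, harvested at 50% confluence, when cells cover only part of the dish. Each line is 1 donor, no genotype or treatment is labelled, and no line was measured again under the same condition, so line and array cannot be told apart.

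Translation begins when eIF2 brings the initiator tRNA to the small ribosomal subunit, while eIF3, a large scaffold complex, holds that subunit ready and eIF1 guards the choice of start codon. The cap-binding factor eIF4E, the scaffold eIF4G and the helicase eIF4A bring the mRNA, and eIF4E-binding proteins (4E-BPs) hold eIF4E back until the mTOR kinase phosphorylates them. eIF5 and eIF5B then join the large subunit, after which eEF1A delivers aminoacyl-tRNAs and eEF2 moves the ribosome along. In growing fibroblasts these factors belong to the abundant housekeeping proteins, and many of their mRNAs are controlled more in their translation than in their amount.

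Signals were deposited as linear intensities with a floor of 100, so a value of 100 is only an upper limit. Probes were designed on human sequence, and a base difference in the gorilla transcript lowers an intensity, so no gene's intensity is read against another's. Intensities are printed as deposited, while folds, log2 differences and SDs come from quantile-normalized log2 values unless stated. All 12 fibroblast markers with a probe set were above the floor, with a summed intensity of 82340 to 135672 in the standard cultures and 77915 at 50% confluence. Markers of other cell types were lower but not all at the floor. In the standard cultures the 5 keratinocyte markers summed to 1964 to 3575 (floor 500; 2966 at 50% confluence) and the 5 endothelial markers to 500 to 728 (floor 500; 500 at 50%). The 4 leukocyte markers summed to 791 to 2672 (floor 400; 872 at 50%) and the 3 melanocyte markers to 306 to 841 (floor 300; 343 at 50%). The line labelled female 3 had the Y-linked RPS4Y1 at 2595, against 100 to 115 in the other lines labelled female and 2662 to 4363 in the male lines, so it goes against its label. The sex and age values of the genes named below are therefore also given without it.

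A few of the factor genes were too dim to follow, which shows what this array cannot say about translation in gorilla cells. EIF4E, the cap-binding protein, EIF2A, a factor for alternative initiation, and EIF2B1, a subunit of the exchange factor that recharges eIF2, stood at 100 on all 12 arrays. EIF3A, the largest eIF3 subunit, had 100 to 164 in the standard cultures, EIF3J 100 to 141 and the heme-regulated eIF2 kinase gene EIF2AK1 100 to 134. These 6 genes did not pass the filter on dim probe sets, a mean log2 above the 40th percentile of all probe sets. The other 36 genes did, as did 5484 genes in all, and counts below are over these 36. They passed on their mean over all standard cultures, not through any group.

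**Figure D1:**
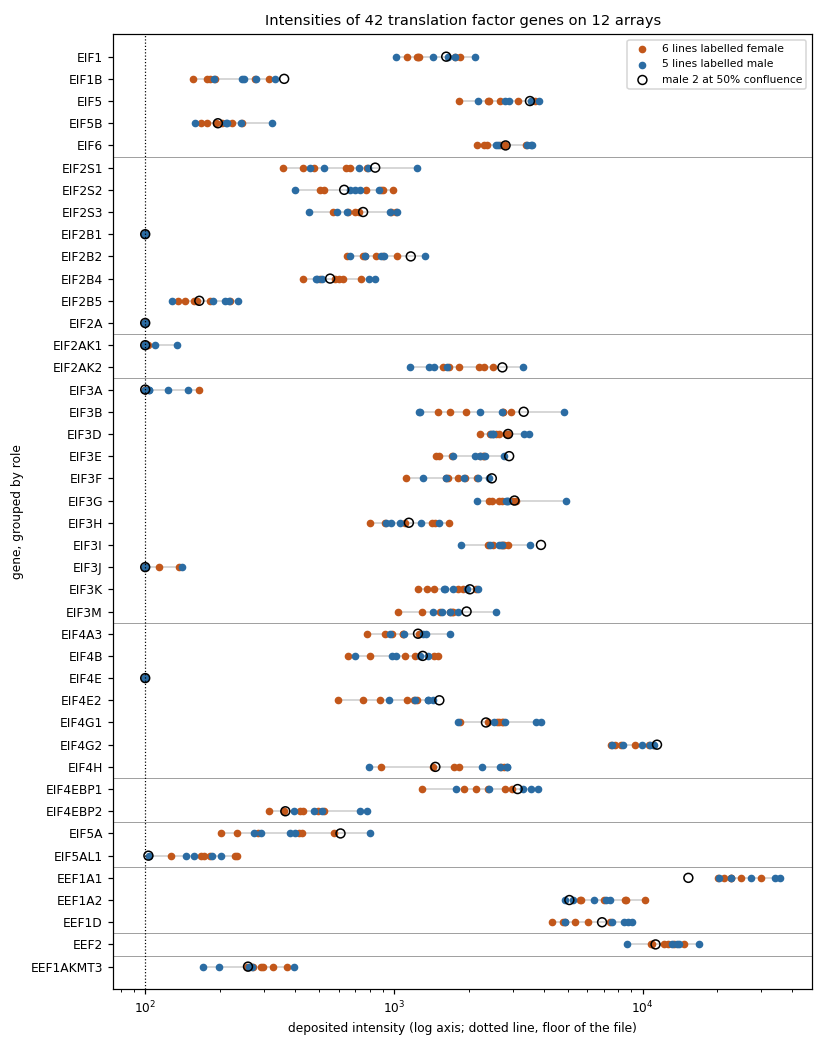
Deposited intensity (log axis) of the 42 genes on each array, grouped by role, with lines labelled female in orange, lines labelled male in blue and male line 2 at 50% confluence as an open circle; grey lines span the 11 standard cultures. EIF4E, EIF2A and EIF2B1 sit on the floor of 100, and the open circle of EEF1A1 (15276) lies left of all 11 standard values (20022 to 35707).

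The translation factors varied between lines about as much as other genes of like brightness. The SD across the 11 lines had a median of 0.33 log2 units over the 36 genes, from 0.15 for EEF1A1 to 0.68 for EIF4H, against a median of 0.40 over all genes. The highest line exceeded the lowest by 2-fold or more in 23 of the 36 genes, or 63.9%, where 72.4% of all genes did. Of the 36 genes, 25 were among the brightest 25% of all genes, in which the median SD was 0.34 over all genes and 0.31 over the factors. In bulk RNA, fewer cells of a type and less RNA per cell cannot be told apart.

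**Figure D2:**
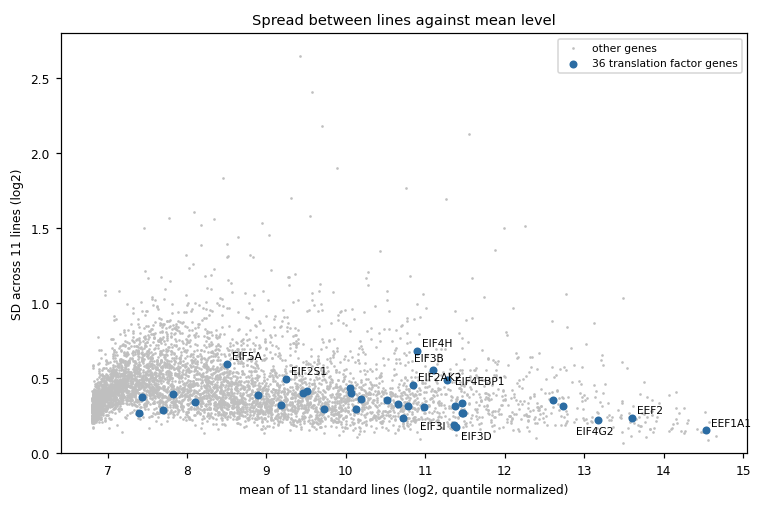
SD across the 11 standard lines (log2 units) against mean level (log2, quantile normalized) for 5484 genes, with the 36 translation factor genes in blue. The factors lie within the cloud of all genes, with EIF4H (SD 0.68), EIF5A and EIF3B as the highest of them and EEF1A1 (SD 0.15) at the bright end.

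Among the factors of start codon selection and subunit joining, all 5 genes passed the filter, with SDs of 0.27 to 0.39. EIF1, the gatekeeper of start codon choice, had a lowest intensity of 1023, a median of 1439 and a highest of 2117 over the 11 lines. EIF5, which triggers GTP hydrolysis by eIF2, had 1833, 2785 and 3838. EIF6, which keeps free large subunits apart from small ones, had 2155, 2661 and 3606. On their chosen probe sets EIF1 and EIF5 thus spanned about the same proportion from lowest to highest line, 2.06-fold and 2.09-fold, and EIF6 less, 1.72-fold. The other EIF5 probe set, with 189 to 784, spanned 4.15-fold (SD 0.57) and ordered the lines differently. Female 2 was lowest on it, but highest on the chosen one after normalization.

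The eIF2 group varied somewhat more, with a median SD of 0.39 over its 6 genes that passed. EIF2S1, the subunit of eIF2 that is phosphorylated under stress, had a lowest intensity of 358 in female 4, a median of 642 and a highest of 1233 in male 3, a 3.21-fold span. The other lines ran from 433 to 784, so male 3 stood apart upward. Another EIF2S1 probe set, near the floor at 100 to 202, had its highest value in male 1 (202), with 171 in male 3. EIF2S3, the tRNA-binding subunit, spanned 457 to 1027, and EIF2S2, the remaining subunit, 402 to 994. The exchange factor genes EIF2B2 and EIF2B4 spanned 650 to 1338 and 432 to 837, and EIF2B5, the catalytic subunit, was dim at 128 to 236.

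EIF2AK2 encodes PKR, the eIF2 kinase activated by double-stranded RNA and induced by interferon. Its lowest intensity was 1162 in male 3, its median 1660 and its highest 3319 in male 2, with an SD of 0.46. This probe set is of the type that may match several members of a sequence family. The other EIF2AK2 probe set, with 132 to 334, ordered the lines differently, with male 4 highest (334) and 209 in male 2. The high value of male 2 therefore rests on 1 of the pair of probe sets.

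The eIF3 subunits had a median SD of 0.31 over the 9 that passed, and both EIF3D and EIF3I were among the 3 steadiest genes. EIF3D, which can itself bind the cap of some mRNAs, had a lowest intensity of 2211, a median of 2565 and a highest of 3509 (SD 0.17, n = 11). EIF3I, a WD-repeat subunit, had 1860, 2696 and 3517 (SD 0.19, n = 11), and its other probe set had an SD of 0.18. EIF3B, the scaffold subunit that holds EIF3I and EIF3G, was the exception. It had 1262 in male 2, a median of 2212 and 4845 in male 1 (SD 0.55, n = 11), a 3.54-fold span with 2954 as the next highest line.

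Of the cap-binding and unwinding factors, EIF4H varied most of all 36 genes, on its only probe set. It encodes a cofactor that stimulates the eIF4A helicase, and it had 795 in male 1, 889 in female 4, a median of 2259 and a highest value of 2845 in male 5. Males 2 to 5 had 2259, 2839, 2668 and 2845, so male 1 stood far below the other males, and the span was 3.55-fold (SD 0.68, n = 11). EIF4B, its companion in helicase stimulation, had 651 to 1500 (SD 0.43). The scaffold genes were steadier, EIF4G1 at 1806 to 3900 (SD 0.32) and EIF4G2, a relative of eIF4G that does not bind eIF4E, at 7488 to 11071 (SD 0.22). EIF4A3, the helicase of the exon junction complex, had 780 to 1682, and EIF4E2, a cap-binding relative that represses translation, 598 to 1441.

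Both repressors of eIF4E that passed spanned over 2-fold. EIF4EBP1, the best known target of mTOR among translation factors, had a lowest intensity of 1296 in the line labelled female 3, a median of 2414 and a highest of 3788 in male 2 (SD 0.49, n = 11). The line labelled female 3 stood below the 10 others, the nearest of which was male 5 at 1769. EIF4EBP2 had 314 in female 4, a median of 479 and 779 in male 4 (SD 0.38). EIF5A, the hypusine-bearing factor that helps ribosomes past difficult stretches, had 201 in female 2, a median of 383 and 801 in male 2, a 4.04-fold span (SD 0.60). EIF5AL1, at 127 to 234 outside male 3 (104), is annotated as a separate EIF5A-like gene, was not found in the gorilla gene table, and its probes may read EIF5A RNA.

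The 4 elongation factor genes spanned less than 2-fold on their chosen probe sets after normalization. EEF1A1, the carrier of aminoacyl-tRNAs, had a lowest intensity of 20022, a median of 22703 and a highest of 35707. Its SD of 0.15 was the lowest of the factors, and 0.675% of all genes had a lower one, but it was 0.29 on the values as deposited. EEF1A1 lies near the top of each array, where quantile normalization assigns nearly the same value everywhere, so this SD reflects the normalization in part. EEF2, the translocase, had 8626 in male 4, a median of 13103 and 16801 in male 1 (SD 0.24). EEF1D, a nucleotide exchange factor for eEF1A, had 4310, 6020 and 9039 (SD 0.35). EEF1AKMT3, a methyltransferase that modifies eEF1A, had 170 to 397.

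Lines differed in which factors they carried at a high level. Counts by line here and below are of quantile-normalized values. Male 1 was above the 11-line median in 26 of the 36 genes, where 46.4% of all genes were above theirs in that line. It was the highest line for 10 of the 36, against 12.4% of all genes. Of these 10 genes, 7 belong to the eIF3 complex, of which 9 genes passed. On the values as deposited, male 1 was also highest for EEF1D, EEF2, EIF4E2 and EIF4G2. Among the brightest 25% of all genes, male 1 was the highest line for 16.1%. EIF3G, which bridges eIF3 to eIF4B, had 4924 in male 1 and 2157 to 3085 elsewhere, and EIF3E had 2772 against 1471 to 2328. For EIF3D, EIF3F, EIF3I and EIF3K male 1 had 3509, 2410, 3517 and 2180, with the next line at 3343, 2182, 2888 and 2133. The exceptions were EIF3H, highest in female 6 (1660, with 1520 in male 1), and EIF3M, highest in male 3 (2573, with 1440 in male 1). EIF4G1, the eIF4F scaffold that docks on eIF3, was also highest in male 1 (3900), next to male 3 (3743). On the other probe sets of EIF3I and EIF4G1, male 3 (2347 and 1469) stood just above male 1 (2346 and 1468). The mean of 7 proliferation markers was 10.44 log2 units in male 1, the highest of the lines, and 8.25 in the lowest, the line labelled female 3. Of the 9 eIF3 genes, 8 were above the 11-line median in male 1 and 5 in the line labelled female 3. Female 5, next to male 1 in the marker mean, had 4 above it, and male 4, with a marker mean of 9.68, had 1. The remaining lines had 3 to 5. The part of proliferation in the eIF3 values was not tested.

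Male 3 was above the median in 21 of 36 genes (42.9% of all genes) and highest in 7 (11.7% of all genes), among them EIF2S1, EIF2B4, EIF4A3 and EIF1. Females 1 to 6 were above the median in 14, 13, 13, 12, 16 and 17 genes, where 43.9% to 47.5% of all genes were. None of the lines labelled female was highest in more than 3 of the 36, and each was highest for 5.67% to 11% of all genes. Male 2 was highest in 6 (9.85% of all genes), among them EIF4EBP1, EIF5A and EIF2AK2. Males 4 and 5 were like the lines labelled female, above the median in 15 and 13 genes (43.4% and 45.6% of all genes). They were highest in 2 and 3 (6.66% and 8.22% of all genes).

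**Figure D3:**
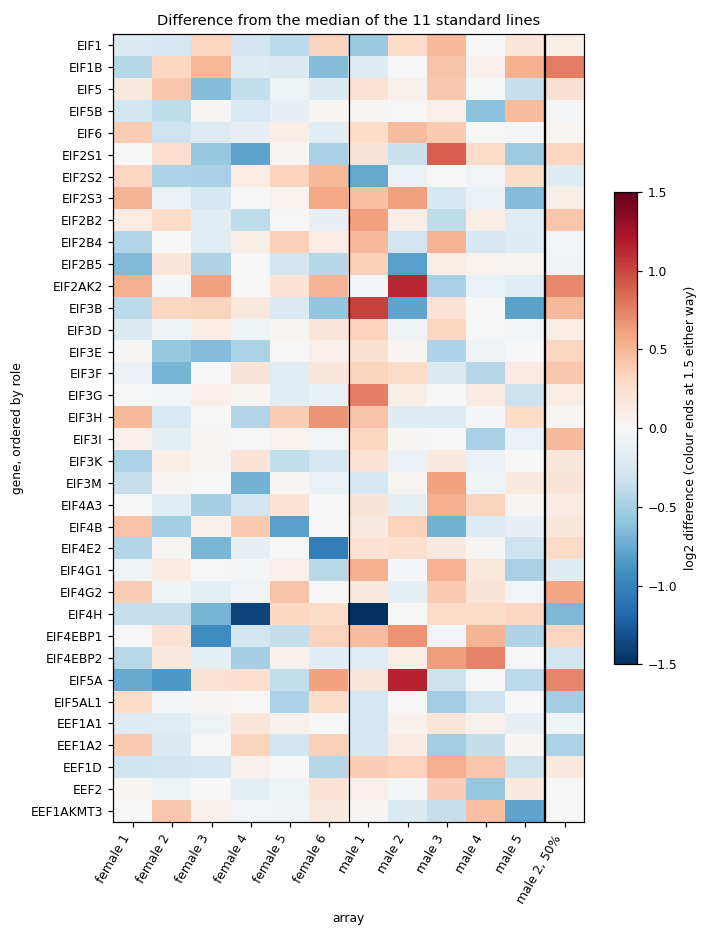
Difference of each array from the median of the 11 standard lines (log2 units, colour scale ending at 1.5 either way) for the 36 genes that passed the filter, ordered by role. Male 1 is red for most EIF3 genes and dark blue for EIF4H, and the rightmost column is male line 2 at 50% confluence.

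The labels allow a comparison of the sexes, male minus female over the 11 lines. More factor genes were higher than lower in the lines labelled male. The difference was above 0 in 26 of 36 genes, with a median of 0.16 log2 units, while 47.8% of all genes were above 0, with a median of -0.015. All 5 genes of start codon selection and subunit joining were positive on their chosen probe sets, at 0.16 to 0.28. The other EIF5B probe sets, with 105 to 263 and 100 to 226, were negative, at -0.48 and -0.21. The other EIF5 probe set was positive, at 0.13. Both 4E-BP genes were positive as well, at 0.40 and 0.43. The eIF3 genes were divided, 6 of 9 positive, from -0.083 to 0.28. The 7 proliferation markers were also all positive, and their part in these differences was not tested. Without the line labelled female 3 the count was 26, and it was 23 without male 1 and 23 without female 2.

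No factor gene passed the test. limma called 0 of the 36 genes for sex at an adjusted p of 0.05, and 0% of all 7541 probe sets, with 397 at an unadjusted p under 0.05, and the smallest adjusted p of a factor gene was 0.89. At that unadjusted threshold, on the chosen probe sets, 1 factor gene was higher in males, or 2.78%, against 2.68% of all probe sets. There were 0 lower, against 2.59%. Outside this count, another probe set of EEF1A2 and another of EIF5B were lower in males, at unadjusted limma p of 0.0325 and 0.0363. The gene higher in males was EEF1D. It had 9039, 7542, 8763, 8443 and 4890 in males 1 to 5, and a lowest of 4310, a median of 5106 and a highest of 7405 in the females. Males 1 to 4 lay above all 6 females and male 5, the donor of 3 years, fell within their range. The limma difference was 0.47 (SE 0.19, unadjusted p = 0.0292, adjusted p = 0.89), and it was 0.47 without the line labelled female 3.

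The next 2 positive genes were EIF4EBP2 and EIF4E2, both repressors of cap-dependent initiation. EIF4EBP2 had 395, 513, 729, 779 and 479 in males 1 to 5 and 314 to 522 in the females, so the groups overlapped (difference 0.43, SE 0.21, limma adjusted p = 0.89). EIF4E2 had 1441, 1375, 1377, 1214 and 956 in the males and 598 to 1238 in the females (0.43, SE 0.22, limma adjusted p = 0.89). The 3 largest negative differences by p were EEF1A2 (-0.29), EEF1AKMT3 (-0.26) and EIF5AL1 (-0.23). Without the line labelled female 3, the differences of EIF4EBP2 and EIF4E2 were 0.44 and 0.37, and those of EEF1A2, EEF1AKMT3 and EIF5AL1 were -0.32, -0.27 and -0.23. EEF1A2 is the form of eEF1A of muscle and nerve, and its other probe set had a difference of -0.92 (SE 0.39, limma adjusted p = 0.89). The median standard error of the sex difference over the 36 genes was 0.21 log2 units.

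Donor age, in years by label, left no factor gene past the test either. limma called 0 of the 36 genes and 0% of the 7541 probe sets, with sex as a covariate, and 410 probe sets had an unadjusted p under 0.05. Without adjustment there were 0 factor genes rising with age, against 2.52% of all probe sets, and 0 falling, against 2.92%. The slopes were above 0 in 20 of 36 genes, with a median of 0.012 log2 units per 10 years. The smallest p values on the positive side were those of EEF1D (0.18 per 10 years, SE 0.093), EIF4G1 (0.20, SE 0.10) and EIF4E2 (0.20, SE 0.11), at limma adjusted p of 0.901, 0.901 and 0.905. EEF1D had 4310 in the donor of 2 years and 4890 in that of 3 years, EIF4G1 had 1851 and 1806, and EIF4E2 had 598 and 956. In the 9 adults these genes had 4774 to 9039, 2400 to 3900 and 752 to 1441. On its chosen probe set EIF4G1 was thus lower in both young donors than in every adult, and in adults alone its slope was -0.041. The other EIF4G1 probe set did not separate them so, with 955 and 1016 in the young donors, 1006 to 1469 in the adults and a slope of 0.087. On the negative side were EIF3H (-0.20, SE 0.11), EIF2S2 (-0.19, SE 0.12) and EIF5AL1 (-0.13, SE 0.097). Without the line labelled female 3, the slopes of EEF1D, EIF4G1 and EIF4E2 were 0.24, 0.24 and 0.31, and those of EIF3H, EIF2S2 and EIF5AL1 were -0.22, -0.12 and -0.17. limma again called 0 factor genes, with a smallest adjusted p of 0.992 among these 6 genes. An age slope that differed between the sexes was called in 0 of the 36 genes and 0% of all probe sets (limma interaction, smallest adjusted p = 0.999). There were 2 of the 36 genes, or 5.56%, with an unadjusted p under 0.05, against 3.74% of all probe sets.

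Male line 2 was also harvested at 50% confluence, and that array was set against its standard array, which leaves the differences without replicates or a test. In the 50% culture all 9 eIF3 genes that passed were higher, by 0.025 to 1.28 log2 units with a median of 0.22. EIF3B led them and all 36 genes, with 1262 in the standard culture and 3326 at 50% confluence, 2.43-fold higher. The value at 50% lies inside the 1262 to 4845 of the 11 standard lines, of which the standard culture of male 2 was the lowest, next to male 5 at 1268. EIF3I had 2647 in the standard culture and 3903 at 50% confluence (1.39-fold), above all standard lines (1860 to 3517), and its other probe set had 1869 and 2971. EIF3E (2328 and 2907) and EIF3F (2182 and 2476) also ended above the highest standard line. All 9 were higher as well on the values as deposited and with median scaling. Among the brightest 25% of all genes, 54.8% were higher at 50% confluence.

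Proliferation markers moved beside the eIF3 genes, with 7 of 7 higher at 50% confluence after quantile normalization and a median of 0.97. As deposited, MCM3 was lower, with 231 in the standard culture and 213 at 50% confluence. The part of proliferation in the eIF3 differences was not tested.

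Over all 36 genes, 20 were higher and 16 lower at 50% confluence, and the median difference was 0.043. A difference of 1.5-fold or more upward was found in 5 genes, or 13.9%, against 19.4% of all genes, and downward in 2, or 5.56%, against 17.6%. At 2-fold or more, 1 factor gene was higher, against 7.18% of all genes, and 0 were lower, against 6.6%. There were 6 genes above the range of the standard lines, or 16.7%, against 7.04% of all genes, and 0 lay below it, against 4.92%. On the values as deposited the split at 1.5-fold was 3 higher and 3 lower.

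The 5 genes past 1.5-fold upward were EIF3B, EIF1B, EIF2B5, EIF4G2 and EIF2S1. EIF1B, a close relative of EIF1, had 244 in the standard culture and 362 at 50%, above all standard lines (155 to 334). Its 1.70-fold difference was 1.48-fold as deposited. EIF4G2 had 7531 and 11427 (1.66-fold), also above all lines (7488 to 11071). EIF2S1 had 524 and 841 (1.58-fold), and its other probe set was higher too (0.56). EIF2B5 had 128 and 165, both near the floor, and its 1.69-fold difference was 1.29-fold as deposited. EIF4E2, the sixth gene above the range, had 1375 and 1523.

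The 6 largest differences downward were those of EIF4H, EEF1A2, EIF2S3, EIF5AL1, EIF6 and EIF5A, and of these EIF4H and EEF1A2 passed 1.5-fold after quantile normalization. EIF4H had 2259 in the standard culture and 1468 at 50% (1.59-fold lower), within the 795 to 2845 of the lines. EIF2S3 had 1027 and 752 (1.45-fold lower), and its other probe set was lower by 0.67 log2 units. EIF6 had 3555 and 2812 (1.36-fold lower) and EIF5A 801 and 610 (1.34-fold lower), the standard culture of male 2 being the highest EIF5A value of all lines. EIF5AL1 had 202 and 103, near the floor. It was 1.43-fold lower and inside the range of the lines after quantile normalization, 1.96-fold lower and below that range as deposited, and 1.94-fold lower with median scaling. With a floor of 200 its difference was -0.0012. The 4E-BP genes were lower as well, EIF4EBP1 at 3788 and 3143 and EIF4EBP2 at 513 and 366, both within the range of the lines.

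**Figure D4:**
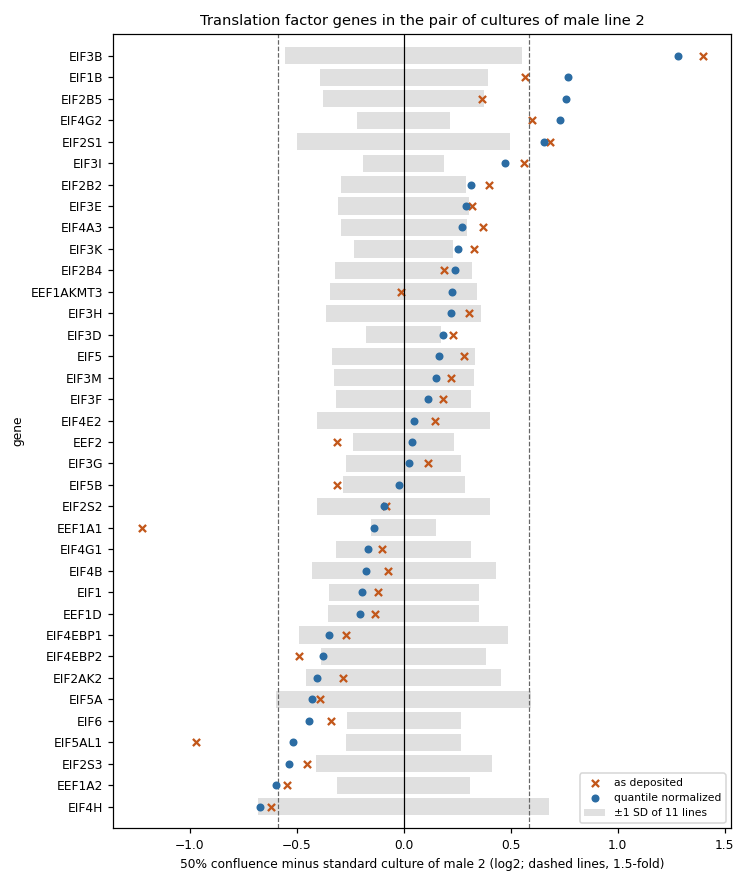
Difference between the 50% confluence and the standard culture of male line 2 (log2 units) for the 36 genes, quantile normalized (blue points) and as deposited (orange crosses), over a grey band of 1 SD of the 11 standard lines; dashed lines mark 1.5-fold. The EIF3 genes all lie right of 0, and EEF1A1 moves from -0.14 to -1.22 between the scales.

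EEF1A1 gave a different answer by probe set and by scale. On the chosen probe set it had 35707 in the standard culture and 15276 at 50% confluence, a ratio of 2.34 in the deposited values, which lay below all 11 lines. After quantile normalization the difference was -0.14 and lay inside their range. A probe set shared by several transcripts had 40333 and 10531, lower by 1.16 log2 units after normalization. The third had 12776 and 12556, which is 0.51 higher after normalization. The arrays also differed in their upper end, since the highest intensity of any probe set was 43135 on the standard array and 18027 on the other. On the standard array both brighter EEF1A1 probe sets, at 35707 and 40333, stood near this upper end, and the third, at 12776, did not. The part of the arrays' range in the differences was not tested.

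EEF1A2 was as divided. Its chosen probe set, of the family type, had 7412 and 5075 (1.51-fold lower, and 1.46-fold lower as deposited), and the other had 951 and 2816, higher by 1.48 log2 units. Across the lines the latter ranged from 588 in male 3 to 4082 in female 4. EEF1A1 and EEF1A2 encode nearly identical proteins, so which of them these probe sets read in gorilla RNA is uncertain. Of the 9 genes with several probe sets, 4 had the same direction at 50% confluence on all of them (EIF2S1, EIF2S3, EIF3I and EIF5B). The other 5 had opposite directions, EEF1A1, EEF1A2, EIF2AK2, EIF4G1 and EIF5. For EIF2AK2 the differences were -0.40 and 0.45, for EIF4G1 -0.17 and 0.39, and for EIF5 0.17 and -0.48. The shared direction of EIF5B says little, since its differences were only -0.023, -0.19 and -0.0047. Its probe sets other than the chosen one stood at the floor of 100 at 50% confluence.

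**Figure D5:**
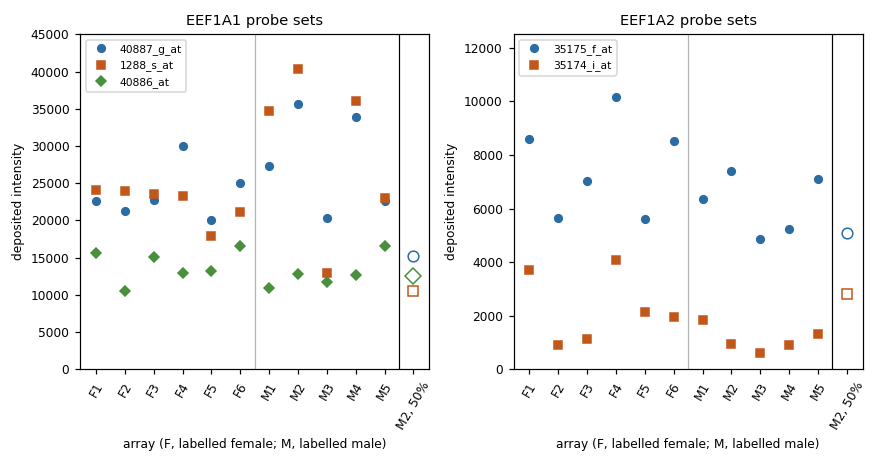
Deposited intensities of the 3 EEF1A1 and 2 EEF1A2 probe sets on the 11 standard arrays (F, labelled female; M, labelled male) and on the array at 50% confluence (open symbols). Both brighter EEF1A1 probe sets have 35707 and 40333 in male 2 and 15276 and 10531 at 50% confluence, while the dimmer has 12776 and 12556.

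Other genes of translation control were read from lists beside these factors. Of the 10 mTOR signalling genes that passed, 5 were higher at 50% confluence, where 49.7% of all genes were, and 3 were lower by 1.5-fold or more, where 17.6% of all genes were. These were MKNK2, a kinase of eIF4E (547 and 202), AKT2 (327 and 142) and RPS6KB1, the S6 kinase (248 and 112), and both of the latter ended near the floor. MTOR itself had 356 and 350. Of the 4 genes of the integrated stress response that passed, 2 were higher and none reached 1.5-fold. ATF4, the transcription factor whose translation rises when eIF2 is phosphorylated, had 4286 and 3985. The 3 mitochondrial translation factors TUFM, TSFM and MTIF2 were all higher, MTIF2 at 143 and 190 near the floor. The termination factor gene GSPT1 had 379 and 561, and ETF1 1556 and 1559. PABPC1, the poly(A) binding protein that contacts eIF4G, had 10544 and 7032. DHPS, the enzyme that starts the hypusine modification of eIF5A, had 972 and 771. limma called 0 of the 22 genes of these 6 lists for sex and 0 for age. Without adjustment 2, or 9.09%, had a p under 0.05 for sex, against 5.26% of all probe sets, and 2, or 9.09%, for age, against 5.44%.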

How the data were processed

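The series holds 1 table of intensities, which the authors deposited as whole numbers per probe set on a linear scale. The software that made them remains not given in the sources used here, as does the origin of the floor. Columns were tied to samples by accession, and lines are numbered within each sex, which pairs nothing. Intensities were taken to log2 and quantile normalized over the 12 arrays, since array medians differed by more than 0.1 log2 units. Control probe sets (67) were left out of tests. Probe sets with a mean log2 above the 40th percentile were fitted with limma 3.58.1 in R 4.3.3 (lmFit, eBayes), with Benjamini-Hochberg adjustment over all 7541 and a threshold of 0.05. The fit was tested on simulated data. The number of arrays limits the precision.

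Gene names come from the platform's annotation, and 41 of the 42 symbols were found in the gorilla RefSeq table of assembly NHGRI_mGorGor1-v2.1. Members and lists were chosen with earlier results of these data known, so they are no independent evidence. Genes named with values were the 6 largest and 3 smallest SDs, the 6 largest differences per direction at 50% confluence, and the 3 smallest p per direction for sex and age. EEF1A1 at 50% confluence and other examples were chosen after their values were seen. Alternatives covered scaling, filter, floor, probe set choice, array weights, age scale, donors, and each line left out.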

Additional observations from a re-analysis of the deposited data

Results flagged for a closer look

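Each group of standard lines was checked for an extreme line in the 36 genes that passed the filter. Intensities in brackets are as deposited, and the gaps cannot be read from them. The gap between the most extreme line and its neighbour, on quantile-normalized log2 values, was set against the range of the group. Of these 72 comparisons 5 were past Dixon's 95% limit, and chance flags about 1 in 20 groups. EIF4H was low in male 1 (795, other males 2259 to 2845), with a gap of 0.82 of the range. EEF1D was low in male 5, the donor of 3 years (4890, other males 7542 to 9039), with a gap of 0.773. EIF2B5 was low in male 2 (128, other males 187 to 236), at 0.724, on a probe set near the floor. EIF2AK2 was high in male 2 (3319, other males 1162 to 1632), at 0.715, which its other probe set did not show. EIF4G1 was low in female 6, the donor of 2 years (1851, other females 2400 to 2756), at 0.646. Its other probe set had 955 in female 6 and 1006 to 1244 in the other females. What lies behind these values was not tested.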

How the results depend on the processing

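Counts over the factor genes stayed within 1.5 times of the main count under the alternatives run, except as follows. The number of factor genes higher by 1.5-fold or more at 50% confluence, 5, was 3 on the values as deposited and 3 with median scaling. The factor genes' median difference at 50% confluence, 0.043, was 0 with no filter, 0.066 with median scaling and 0.080 with the mean of each gene's probe sets. With each line left out, limma called 0 to 1 probe sets for sex, the 1 without the line labelled female 3, and 0 factor genes in any run. Among single genes, the difference of EIF2B5 at 50% confluence was 0 with a floor of 200, by construction, since both values lie under it. That of EEF1A2 was 0.44 with the mean of its probe sets, against -0.60. The age slope of EIF4G1 was -0.041 in adult donors and -0.055 in adults without the line labelled female 3. In adults, that of EIF4E2 was -0.12, and in adults without the line labelled female 3 that of EIF2S2 was 0.38. The cause was not tested for these slopes. The analysis of adults without the line labelled female 3, the eIF3 counts, the count above the range of the lines, the count of positive sex differences and EEF1A1 at 50% confluence were added after seeing the data. Without male 3 the brightest EEF1A1 probe set is another one, with a difference of -1.20. Leaving out male 2 gives no value for the 50% culture, and averaging probe sets gives no count of probe sets. Intensities near the floor, such as those of EIF2B5, EIF5AL1, EIF5B and EIF1B, limit what their differences can show.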
